A study of Mus musculus with 6 samples.

Results

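Genes for the protein subunits of the mitochondrial respiratory chain were followed over 6 arrays of differentiated C2C12 cells, a mouse myoblast line that fuses into multinucleated myotubes when serum is withdrawn. They were taken by gene symbol from the array annotation: every symbol that begins with Ndufa, Ndufb, Ndufc, Ndufs or Ndufv other than the Ndufaf assembly factors, with Uqcr, with Cox4 to Cox8 or with Atp5, and Sdha to Sdhd. The rule found 85 of the 19505 genes on the array, of which 36 belong to complex I, 4 to complex II, 8 to complex III, 20 to complex IV and 17 to complex V. Ndufa4 and Ndufa4l2 were counted with complex IV, where Ndufa4 is now placed. Cox7a2l, which joins complexes III and IV into supercomplexes, was kept with complex IV because of its symbol. The rule reads symbols only.

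The experiment asked what the myogenic transcription factor MyoD does to gene expression when it is forced in C2C12 cells, and all 6 arrays come from cells after 72 h of differentiation. Nontransduced cells received no virus and were given doxycycline, uninduced cells carried a lentiviral transgene encoding Myod1 under a doxycycline-responsive promoter and were given none, and MyoD + Dox cells were the same transduced cells given doxycycline. The transduced cells had also been selected with blasticidin. MyoD + Dox and uninduced cells therefore differed in doxycycline as well as in MyoD, MyoD + Dox and nontransduced cells in virus and selection as well as in MyoD, and uninduced and nontransduced cells in virus, selection and doxycycline together, and in each comparison these cannot be told apart. Doxycycline, an antibiotic known to inhibit the mitochondrial ribosome, was thus present in nontransduced and MyoD + Dox cells alike. There were 2 arrays a group. The sources used here do not say whether both came from separate cultures. The p-values therefore cover the spread between these arrays alone, which may be technical.

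The respiratory chain sits in the inner mitochondrial membrane. Complexes I and II take electrons from NADH and succinate, complex III passes them to cytochrome c, complex IV hands them to oxygen, and complex V, the ATP synthase, uses the proton gradient built by complexes I, III and IV. Nearly all subunits are encoded in the nucleus and imported, a few of complex IV exist as muscle and general isoforms, and mitochondrial content is known to increase as myoblasts become myotubes. In whole cultures more differentiated cells and more RNA per cell cannot be told apart.

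Myod1 itself had log2 signals of 8.72 and 10.68 on the nontransduced arrays, 9.0 and 7.91 on the uninduced arrays and 11.51 and 12.54 on the MyoD + Dox arrays. Both MyoD + Dox arrays lay above the other 4, as the labels say, with a difference of 3.57 ± 0.75 (SE) from uninduced cells and an adjusted p of 0.670 in limma. The sources used here do not say whether the probes lie within the transgene. The label of differentiated muscle was checked with 7 myotube markers (Myog, Mymk, Myh3, Ckm, Acta1, Tnnt3 and Des), all of which were above background on every array. Both MyoD + Dox arrays were above both uninduced arrays for 7 of the 7, with a median difference of 2.26 on the log2 scale. The same held for 23.8% of all genes, and for 30.7% of genes above background on all 6 arrays. None of the markers of adipocytes (5 measured), macrophages (3 of 4 measured), endothelium (3) and osteoblasts (3) was above background on any array, and of the 3 neuron markers only Syt1 was, on 3 arrays. Over 5 markers of undifferentiated or reserve cells the median difference was 0.37. The 3 separated upward were Id1 (0.735), Hes1 (0.70) and Mki67 (0.37), and Myf5 was separated downward (-1.85), against 23.8% and 24.8% of all genes. Pax7 was above background on no array, and Hes1 on neither uninduced array. Within groups the arrays stood apart: after each gene's mean over the 6 arrays was subtracted, the median of the myotube markers was -0.35 and 1.69 on the nontransduced arrays, -0.42 and -2.46 on the uninduced arrays, and 0.74 and 0.94 on the MyoD + Dox arrays.

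The subunit genes followed the same split between arrays. Their median, centred in the same way, was -0.24 and 0.65 in nontransduced cells, -0.22 and -0.51 in uninduced cells, and 0.04 and 0.33 in MyoD + Dox cells. As group means these are 0.21 ± 0.63, -0.36 ± 0.21 and 0.19 ± 0.20 (SD, n = 2 arrays each). The second nontransduced array was the highest of the 6 for 68 of the 85 genes, and the second uninduced array was the lowest for 60. Between the 2 nontransduced arrays the second was higher for 81 of 85 genes, with a median gap of 0.90, while over all genes the median gap was 0.01. The second uninduced array was higher than the first for 17 genes, with a median gap of -0.27, and the second MyoD + Dox array for 79, with a median gap of 0.31. The subunits and the myotube markers put the second nontransduced array first, the MyoD + Dox arrays next and the second uninduced array last. The part that the degree of differentiation of each culture plays in the differences below was not tested.

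**Figure D1:**
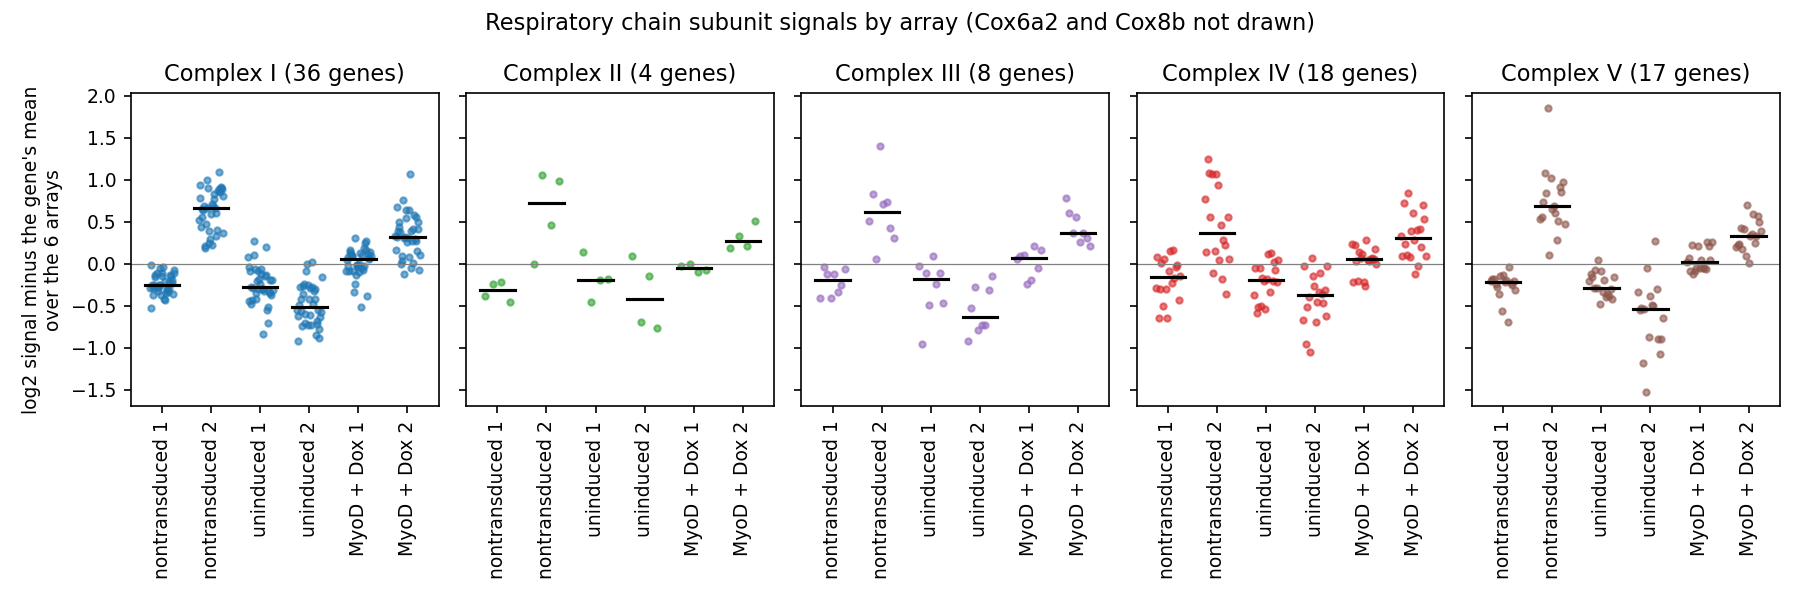
Log2 signal of each subunit gene minus its mean over the 6 arrays (vertical axis), for each array (horizontal axis) and each complex (panels); points are genes and black bars medians, and Cox6a2 and Cox8b, which run off this scale, are left out. In every complex the second nontransduced array has the highest median and the second uninduced array the lowest, and both MyoD + Dox medians lie above both uninduced medians.

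Against uninduced cells, the subunit genes were higher in MyoD + Dox cells nearly throughout, by a modest and similar amount in all 5 complexes. Their median difference was 0.52 on the log2 scale, or 1.44-fold, with quartiles of 0.34 and 0.80, while the median over all genes was -0.01. The difference was positive for 81 of 85 genes (95.3%), against 48.9% of all genes. Both MyoD + Dox arrays lay above both uninduced arrays for 62 of the 85 (72.9%), against 23.8% of all genes, and both lay below for 0, against 24.8%. Among genes above background on all 6 arrays the shares were 59 of 76 subunits (77.6%) and 30.7% of all such genes above, and 0 subunits and 29.2% of all such genes below. The separated subunits numbered 25 of 36 in complex I, 3 of 4 in complex II, 7 of 8 in complex III, 13 of 20 in complex IV and 14 of 17 in complex V. The medians by complex were 0.51 for complex I, 0.46 for complex II, 0.64 for complex III, 0.54 for complex IV and 0.51 for complex V. With each of the 4 arrays of the comparison left out in turn, the count ran from 63 without the second MyoD + Dox array to 78 without the first, against 34.9% to 36.9% of all genes. The count below ran from 0 to 4, against 37% to 39.6%. Neither count can fall when an array is left out, so these ranges do not test the separation.

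Gene by gene, the replication did not carry a call. No gene of the 19505 passed an adjusted p of 0.05 in limma (0%, members and others alike), and the lowest adjusted p among the subunits was 0.670. At an unadjusted p under 0.05 in limma, 3 subunits were higher (3.53%, against 4.22% of all genes) and 0 were lower (against 3.19%). The 3 were Cox6a2, Uqcr11 and Ndufs3. The standard error of a subunit's difference ranged from 0.19 to 1.78, with a median of 0.35, and includes the gap between the nontransduced arrays. Fitted on the 4 arrays of the comparison alone, limma put 33 subunits (38.8%, against 8.45% of all genes) at an unadjusted p under 0.05 in the higher direction and 0 (against 8.24%) in the lower. That fit called 15 genes after adjustment (0.0769%), none of them a subunit, with a lowest adjusted p among subunits of 0.0546 for Cox6a2. Leaving out either nontransduced array gives this same fit, because the lone array left in that group adds nothing to the spread. The methods' t-test gave 9 subunits in the higher direction at an unadjusted p under 0.05 (10.6%, against 4.3% of all genes), 0 in the lower (against 4.42%) and 0 genes after adjustment. With single arrays left out, limma gave from 0 such subunits without the second MyoD + Dox array to 33 without either nontransduced array, with 1 without the second uninduced array and 5 without the first MyoD + Dox array. The shares of all genes in these fits were 1.32%, 8.45%, 1.28% and 2.68%.

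**Figure D2:**
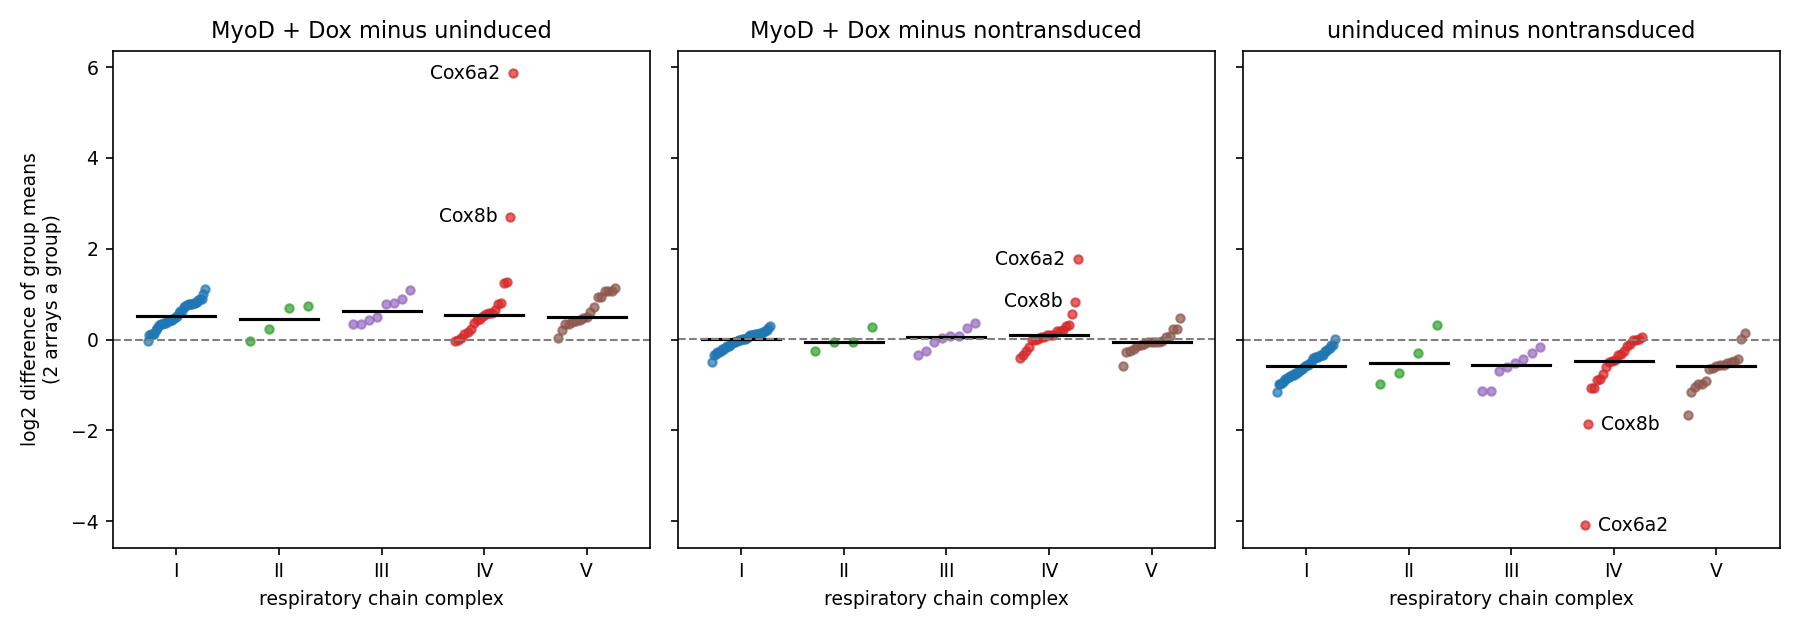
Log2 difference of group means (vertical axis) for each subunit gene, by complex (horizontal axis), in the 3 comparisons (panels); points are genes in order of size, black bars the median of a complex, and the dashed line the median of all genes. The medians by complex run from 0.46 to 0.64 in the first panel, from -0.06 to 0.10 in the second and from -0.58 to -0.47 in the third, with Cox6a2 at the extreme of each panel.

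Cytochrome c oxidase, complex IV, held the widest range. Subunits 6a, 7a and 8 of this enzyme exist as a heart and muscle isoform (Cox6a2, Cox7a1 and Cox8b) and a general or liver isoform (Cox6a1, Cox7a2 and Cox8a). Cox6a2 had log2 signals of 7.08 and 12.72 in nontransduced cells, 6.22 and 5.39 in uninduced cells, and 10.73 and 12.62 in MyoD + Dox cells. Both MyoD + Dox arrays were far above both uninduced arrays, of which only the first was above background, while the nontransduced arrays spanned nearly the whole range. The difference between MyoD + Dox and uninduced cells was 5.86 ± 1.78 (SE) as measured, with an unadjusted p of 0.0174 and an adjusted p of 0.670 in limma. With the second uninduced signal raised to that array's background, a setting chosen after seeing the data, it was 5.55, or 46.8-fold. The first uninduced signal of Cox6a2 was itself near background (6.03), which limits the size of this difference. The measured difference was between 4.92 and 6.81 with each array of the comparison left out in turn. Its general partner Cox6a1 read 15.16 and 15.71, 15.10 and 14.76, and 14.94 and 15.25 on the same arrays, so that its MyoD + Dox and uninduced arrays overlapped, with a difference of 0.17 ± 0.28 (SE).

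Cox8b had log2 signals of 4.13 and 7.96 in nontransduced, 5.17 and 3.19 in uninduced cells, with 6.07 and 7.70 in MyoD + Dox cells. Neither uninduced array was above background, and of the MyoD + Dox arrays only the second was. The measured difference of 2.70 ± 1.37 (SE) therefore rests on signals below background and does not give a size. With both uninduced signals raised to background it was 0.85, or 1.81-fold. This is not a lower bound, because the first MyoD + Dox signal was itself below background and was kept as measured. Cox8a, at 14.28 and 13.79 on the uninduced and 14.33 and 14.46 on the MyoD + Dox arrays, differed by 0.37 ± 0.25 (SE). Cox7a1 was above background on all 6 arrays, with 6.03 and 7.76 in nontransduced, 6.15 and 6.42 in uninduced cells, and 6.46 and 7.29 in MyoD + Dox cells. The uninduced and first MyoD + Dox signals of Cox7a1 were near background (6.03, 6.03 and 6.11), which limits its difference of 0.59 ± 0.60 (SE). That of Cox7a2, whose arrays of the 2 groups overlapped, was 0.45 ± 0.42.

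Within an array, the difference between the muscle and the general isoform does not depend on how bright the array is, and it can be compared between arrays even though 2 probe sets cannot be compared in level. Cox6a2 minus Cox6a1 was 5.70 ± 0.83 (SE) higher in MyoD + Dox than in uninduced cells, and 5.38 higher with the second uninduced Cox6a2 signal raised to background. The errors of these pair differences come from the 4 arrays of the comparison alone. They cannot be set against the limma errors of single genes, which take in the nontransduced arrays. Cox8b minus Cox8a was 2.34 ± 1.06 higher as measured, which rests on uninduced Cox8b signals below background. With those raised to background it was 0.49, with overlapping arrays. Cox7a1 minus Cox7a2 was 0.14 ± 0.42 higher, with arrays that overlapped. An exact permutation test, two-sided, gave p = 0.333 for the Cox6a and Cox8 pairs, the smallest that 2 arrays against 2 allow, and p = 1 for Cox7a. Adjusted over the 3 pairs, the exact p-values were 0.5, 0.5 and 1. As measured, both MyoD + Dox arrays lay above both uninduced arrays for the Cox6a and Cox8 pairs, and for the Cox8 pair this was lost with the raised signals (exact permutation test, p = 1).

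**Figure D3:**
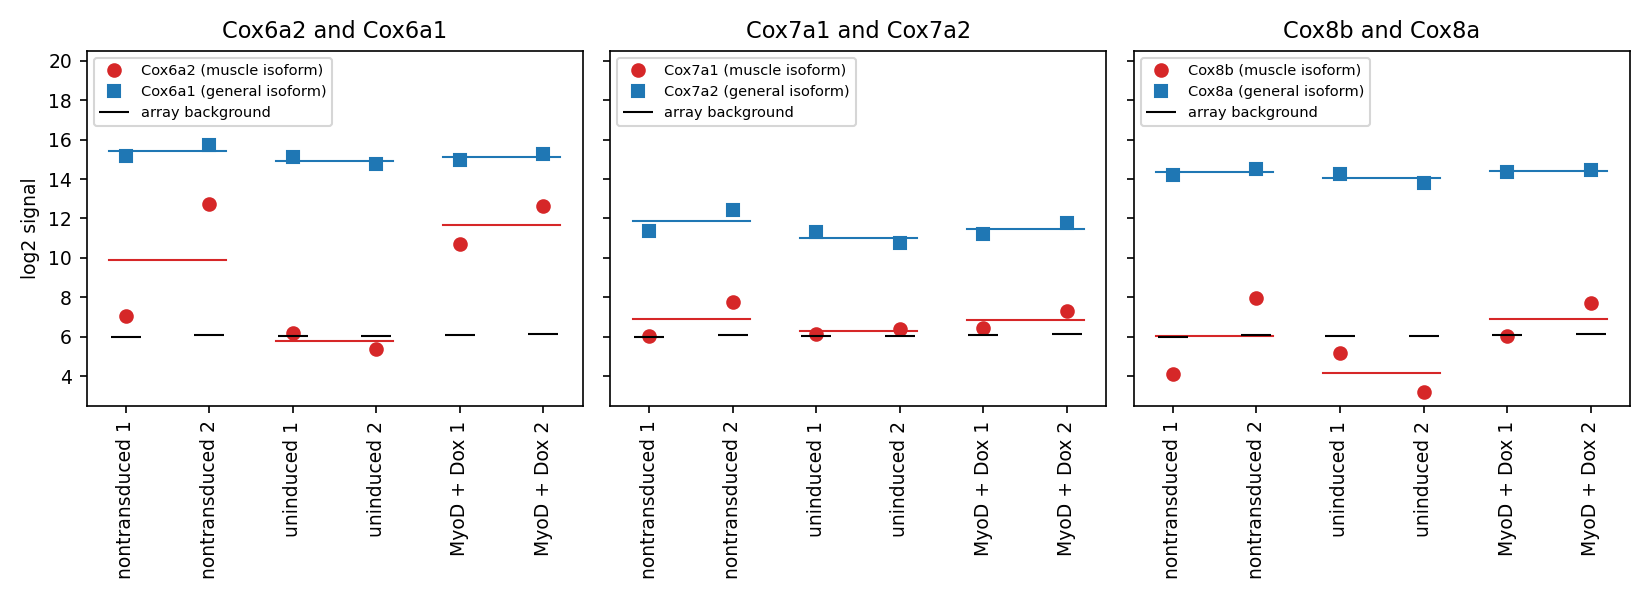
Log2 signal (vertical axis) of the muscle isoform (red circles) and the general isoform (blue squares) of 3 subunits of complex IV on each array (horizontal axis), with the mean of each group as a coloured line and the background of each array as a black dash. Cox6a2 ranges from 5.39 to 12.72 while Cox6a1 stays between 14.76 and 15.71; levels of different probe sets are not comparable.

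The DNA just upstream of the subunit genes was read from RefSeq (build GRCm38.p6) for 4 forms: CAGCTG, an E-box that MyoD is known to bind; CATGCGC, which makes up each side of the palindrome bound by NRF1; CCGGAAG, the ETS form bound by GABP; and AAGGTCA, the half-site of the estrogen-related receptors. The 250 bases before each start were searched on both strands. A promoter was at hand for 70 of the 85 genes, 75 promoters in all with alternative starts, against 32851 promoters of all genes. The E-box was present in 6 of the 75 (8.0%), against 13.0% of all promoters, the NRF1 form in 10 (13.3%, against 3.24%), the ETS form in 12 (16.0%, against 6.91%) and the receptor half-site in 5 (6.67%, against 4.08%). The 10 with the NRF1 form were Atp5g2, Atp5k, Atp5l, Cox5b, Cox6a1, Ndufa11, Ndufa6, Ndufa8, Ndufb6 and Sdhb, among them Atp5l, Cox6a1 and Ndufb6 which also held the ETS form. The promoters below are those of the muscle isoform Cox8b, the general isoform Cox6a1 and the pair of subunits with the lowest p after Cox6a2. Matches to the 4 forms are in capitals, and a form on the other strand appears as its reverse complement. They are matches of letters only.
Cox8b (chr7:140900447-140900696, minus strand): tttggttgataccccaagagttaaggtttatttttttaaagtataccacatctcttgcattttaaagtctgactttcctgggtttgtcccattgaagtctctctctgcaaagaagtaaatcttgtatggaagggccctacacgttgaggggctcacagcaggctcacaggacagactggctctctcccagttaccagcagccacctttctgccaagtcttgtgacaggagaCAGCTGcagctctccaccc
Cox6a1 (chr5:115348959-115349208, minus strand): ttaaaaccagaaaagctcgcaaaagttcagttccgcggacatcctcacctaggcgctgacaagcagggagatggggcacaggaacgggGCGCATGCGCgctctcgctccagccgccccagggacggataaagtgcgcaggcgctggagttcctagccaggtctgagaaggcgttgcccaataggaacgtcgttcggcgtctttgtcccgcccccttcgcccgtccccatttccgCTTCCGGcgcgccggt
Ndufs3 (chr2:90904722-90904971, minus strand): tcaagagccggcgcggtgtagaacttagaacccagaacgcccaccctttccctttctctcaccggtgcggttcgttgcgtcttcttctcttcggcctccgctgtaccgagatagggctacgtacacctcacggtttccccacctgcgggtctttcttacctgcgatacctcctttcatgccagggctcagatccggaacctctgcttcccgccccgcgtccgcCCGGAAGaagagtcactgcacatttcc
Uqcr11 (chr10:80406822-80407071, minus strand): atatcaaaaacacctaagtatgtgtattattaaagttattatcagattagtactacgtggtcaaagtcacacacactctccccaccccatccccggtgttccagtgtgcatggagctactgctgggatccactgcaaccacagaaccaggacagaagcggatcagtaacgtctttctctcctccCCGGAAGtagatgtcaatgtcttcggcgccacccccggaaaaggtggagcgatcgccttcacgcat
Cox8b held the E-box, which begins 19 bases before the start, and none of the other 3 forms. The promoter of the muscle isoform Cox7a1, not printed, held none of the 4 forms, and no promoter of Cox6a2 was at hand. Cox6a1 held the NRF1 form on both strands as overlapping matches that begin 162 and 159 bases before the start, and the ETS form 16 bases before it, Ndufs3 the ETS form 27 bases and Uqcr11 the same form 66 bases before it.

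The subunits of complex IV that all tissues share had smaller differences than Cox6a2, each positive for those named here. Cox6b1, an intermembrane-space subunit at the dimer interface, read 12.03 and 11.49 on the uninduced and 12.67 and 13.38 on the MyoD + Dox arrays, a difference of 1.27 ± 0.56 (SE). Cox5a, a matrix-facing subunit, read 11.67 and 11.31 against 12.49 and 12.99, a difference of 1.25 ± 0.61. For both, the MyoD + Dox arrays lay above the uninduced arrays, and the second nontransduced array (13.60 and 13.51) lay above all of them. Cox4i1, the regulatory subunit that binds ATP, differed by 0.81 ± 0.37, Ndufa4 by 0.77 ± 0.38, Cox7b by 0.56 ± 0.29, Cox6c by 0.43 ± 0.24 and Cox7a2l by 0.24 ± 0.28, the last with overlapping arrays. Adjusted p-values of all of these in limma were 0.680 or more. The isoforms of lung and testis and the remaining paralogs, Cox4i2, Cox6b2, Cox7b2, Cox8c and Ndufa4l2, were above background on no array and give no fold.

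In complex I the difference ran from -0.03 to 1.11. Ndufs3, a core subunit of the arm that reduces ubiquinone, read 13.02 and 14.19 in nontransduced, 12.78 and 12.47 in uninduced cells, and 13.57 and 13.90 in MyoD + Dox cells. Both MyoD + Dox arrays were above both uninduced arrays, by 1.11 ± 0.41 (SE) or 2.16-fold, with an unadjusted p of 0.0363 and an adjusted p of 0.670 in limma. Ndufs4, an accessory subunit needed for a stable complex, read 9.96 and 9.95 on the uninduced and 10.94 and 10.97 on the MyoD + Dox arrays. Its arrays agreed closely within each of these groups, and the difference was 1.0 ± 0.43, with an error that takes in the nontransduced arrays at 10.45 and 11.76. Ndufa3, a small membrane-arm subunit, differed by 0.80 ± 0.33 and Ndufs5 by 0.81 ± 0.36. The flavin-bearing subunit Ndufv1, where NADH is oxidised, differed by 0.75 ± 0.43, and the large iron-sulfur subunit Ndufs1 by 0.41 ± 0.32. Ndufb10, a membrane-arm subunit, read 7.25 and 7.36 on the uninduced and 7.21 and 7.33 on the MyoD + Dox arrays, a difference of -0.03 ± 0.39, against 7.20 and 8.35 in nontransduced cells. Ndufb4 (0.44 ± 0.30) and Ndufb4b (0.36 ± 0.23) are near-identical copies whose signals cannot be told apart with certainty.

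The 4 subunits of succinate dehydrogenase, complex II, differed among themselves. Its catalytic flavoprotein Sdha read 10.44 and 10.83 in nontransduced, 10.97 and 10.92 in uninduced cells, and 10.81 and 11.02 in MyoD + Dox cells, a difference of -0.03 ± 0.22 (SE). Its iron-sulfur partner Sdhb read 11.80 and 13.10, 11.58 and 11.35, and 12.04 and 12.36, a difference of 0.74 ± 0.44. The membrane anchors Sdhc and Sdhd differed by 0.23 ± 0.29 and 0.69 ± 0.52. Sdha was the one subunit of the 85 for which both uninduced arrays lay above both nontransduced arrays. The adjusted p in limma was 0.976 for Sdha and 0.697 for Sdhb, and the difference between these 2 subunits was not tested.

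In complex III all 8 differences were positive, from 0.34 to 1.09. Uqcr11, a small accessory subunit, read 7.25 and 8.12 in nontransduced, 6.33 and 6.76 in uninduced cells, and 7.38 and 7.89 in MyoD + Dox cells. The uninduced arrays were the lowest of the 6, and the difference of 1.09 ± 0.37 (SE), or 2.13-fold, had an unadjusted p of 0.0272 and an adjusted p of 0.670 in limma. The core protein Uqcrc1 differed by 0.80 ± 0.62 and Uqcrfs1, the Rieske iron-sulfur protein, by 0.78 ± 0.39.

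In complex V all 17 differences were positive, from 0.03 to 1.13. The catalytic head subunits Atp5a1 and Atp5b differed by 0.38 ± 0.29 (SE) and 0.48 ± 0.31, and Atp5d, of the central stalk, by 1.06 ± 0.51. The c ring that turns in the membrane is built from 1 protein encoded by 3 genes, Atp5g1, Atp5g2 and Atp5g3, whose mature products are the same. Atp5g1 read 13.09 and 15.32 in nontransduced, 13.16 and 11.93 in uninduced cells, and 13.37 and 13.87 in MyoD + Dox cells, a difference of 1.08 ± 0.78. Atp5g3 read 13.04 and 14.63, 13.13 and 12.73, and 13.83 and 14.30, a difference of 1.13 ± 0.53. Atp5g2 stayed between 15.30 and 15.54 on all 6 arrays, a difference of 0.03 ± 0.20, so the 3 genes of 1 protein ranged from 1.02-fold to 2.20-fold. The adjusted p-values in limma were 0.725, 0.680 and 0.975 for Atp5g1, Atp5g3 and Atp5g2.

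Against nontransduced cells, the second control group, the subunits of MyoD + Dox cells lay near those of the controls on average. The median difference was 0.01 on the log2 scale, beside 0.00 over all genes, and 43 of 85 differences were positive (50.6%, against 50.2% of all genes). Both MyoD + Dox arrays lay above both nontransduced arrays for 3 subunits (3.53%, against 13.9% of all genes), which were Uqcrb, Cox6b2 and Cox8c, the last pair not above background on any array. They lay below for 0, against 14.3%. In limma 0 genes passed after adjustment (0%) and 0 subunits were at an unadjusted p under 0.05 in either direction, against 1.6% of all genes higher and 1.34% lower. With the 4 arrays alone limma gave 0 subunits higher (against 1.22%) and 0 lower (against 0.861%), and the methods' t-test 0 in either direction (against 1.8% in each) with 1 gene after adjustment (0.00513%), not a subunit. The lowest adjusted p among subunits was 1.0. This result rests on the mean of nontransduced arrays that differ: without the first, both MyoD + Dox arrays were below the remaining one for 69 subunits (81.2%, against 38% of all genes), with a median of -0.45. Without the second they were above the first for 74 (87.1%, against 36.3%), with a median of 0.41.

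Cox6a2 had the highest difference from nontransduced cells (1.77 ± 1.78, SE), which turned negative without the first nontransduced array (-1.05). Cox8b was above background on 1 of the 2 arrays in each of these groups, and its measured difference of 0.83 ± 1.37 gives no rank. The lowest were Atp5g1 (-0.58 ± 0.78), Ndufb10 (-0.51 ± 0.39), Cox7a2 (-0.41 ± 0.42) and Ndufb5 (-0.34 ± 0.33), and all 4 turned positive without the second nontransduced array.

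Between the control groups, the subunits were lower in uninduced cells, with a median difference of -0.56 on the log2 scale beside 0.00 over all genes. The difference was positive for 6 subunits (7.06%, against 49.9% of all genes). Both uninduced arrays lay below both nontransduced arrays for 40 of 85 subunits (47.1%, against 19.2% of all genes), and above for Sdha only (1.18%, against 19.2%). In limma 0 genes passed after adjustment (0%), and at an unadjusted p under 0.05 there were 3 subunits lower (3.53%, against 3.12%) and 0 higher (against 3.11%). The 3 were Uqcr11 (-1.14 ± 0.37, SE), Ndufs5 (-0.98 ± 0.36) and Ndufs4 (-1.15 ± 0.43), each with an adjusted p of 0.637. With the 4 arrays alone limma gave 1 subunit lower (1.18%, against 1.57% of all genes) and 0 higher (against 1.8%), and the methods' t-test likewise 1 lower (against 2.03%) and 0 higher (against 2.2%), with 0 genes after adjustment by either. Without the first nontransduced array 58 subunits were lower at that p, against 13.1% of all genes, and the median was -1.03. Without the second there were 0, against 2.02%, and the median was -0.15. Cox6a2 had the lowest measured difference (-4.09 ± 1.78, or -3.78 with the uninduced signal below background raised to it). Atp5g1 (-1.66 ± 0.78) and Atp5d (-1.16 ± 0.51) were among the lowest of the rest, and Sdha was the highest (0.31 ± 0.22). Cox8b was not above background on either uninduced array and on only 1 of the 2 nontransduced arrays. Its arrays of the 2 groups overlapped, and no fold is given. Without the first nontransduced array, which leaves a lone array in that group that is assumed to vary like the others, limma called 2191 genes after adjustment (11.2%) and 27 of the 85 subunits (31.8%). Among these were Cox6a2 (-6.91, adjusted p = 0.00605 in limma), Ndufs4, Ndufs5, Ndufs3, Uqcr11, Atp5g1, Atp5d and Cox8b. Both comparisons with uninduced cells, and both with nontransduced cells, share arrays and are not independent of each other.

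Other genes of the same pathway were read from lists for comparison between MyoD + Dox and uninduced cells. Assembly factors, which build the complexes but are not part of them, had a median difference of 0.24 over 44 measured genes, with both MyoD + Dox arrays above both uninduced arrays for 23 and below for 6, beside 23.8% and 24.8% of all genes. At an unadjusted p under 0.05 in limma, beside 4.22% of all genes higher and 3.19% lower, 2 were higher (Cox14, 0.73, and Coa3, 0.60, both of complex IV assembly) and 1 lower (Uqcc3, of complex III assembly, -0.93). Electron carriers and enzymes that feed them had a median of 0.44 over 14 genes. Of these 9 lay above and 1 below, beside 23.8% and 24.8% of all genes. Coq8a, of ubiquinone synthesis, read 9.77 and 9.80 on the uninduced and 11.36 and 12.95 on the MyoD + Dox arrays, a difference of 2.37 ± 0.99 (SE). Coq3 differed by 1.10 ± 0.45, cytochrome c (Cycs) by 1.08 ± 0.47 and cytochrome c1 (Cyc1), the heme subunit of complex III whose symbol the rule did not take, by 0.58 ± 0.64. In this list 1 gene was higher at an unadjusted p under 0.05 in limma and 0 lower, beside 4.22% and 3.19% of all genes.

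The tricarboxylic acid cycle, which supplies NADH and succinate, had a median of 0.47 over 13 genes. Of these 9 lay above and 2 below, beside 23.8% and 24.8% of all genes. The 2 below were at an unadjusted p under 0.05 in limma, against 3.19% of all genes lower, and 0 were higher, against 4.22%. The 2 were Idh2, the NADP-dependent isocitrate dehydrogenase (-0.84 ± 0.29, SE), and Suclg2, the GTP-forming subunit of succinyl-CoA ligase (-0.75 ± 0.26). Citrate synthase (Cs) differed by 0.47 ± 0.27. Known regulators of mitochondrial genes had a median of 0.11 over 16 genes, 6 of them above background on no array. The list held 18 genes, of which Esrra, an estrogen-related receptor, and Ppard were not measured. Both MyoD + Dox arrays lay above for 6 and below for 3, beside 23.8% and 24.8% of all genes. At an unadjusted p under 0.05 in limma 0 were higher, against 4.22% of all genes, and 0 lower, against 3.19%. The coactivator Ppargc1a read 6.79 and 10.40 in nontransduced, 7.16 and 8.11 in uninduced cells, and 7.20 and 7.92 in MyoD + Dox cells, a difference of -0.08 ± 1.13, and Ppargc1b differed by 1.09 ± 0.76. Nrf1 (-0.05 ± 0.22), Gabpa (-0.17 ± 0.21) and Tfam (0.02 ± 0.25), which bind nuclear or mitochondrial promoters, differed by less than their SE, and Perm1 was above background on no array. No adjusted p of these lists was below 0.670 in limma.

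**Figure D4:**
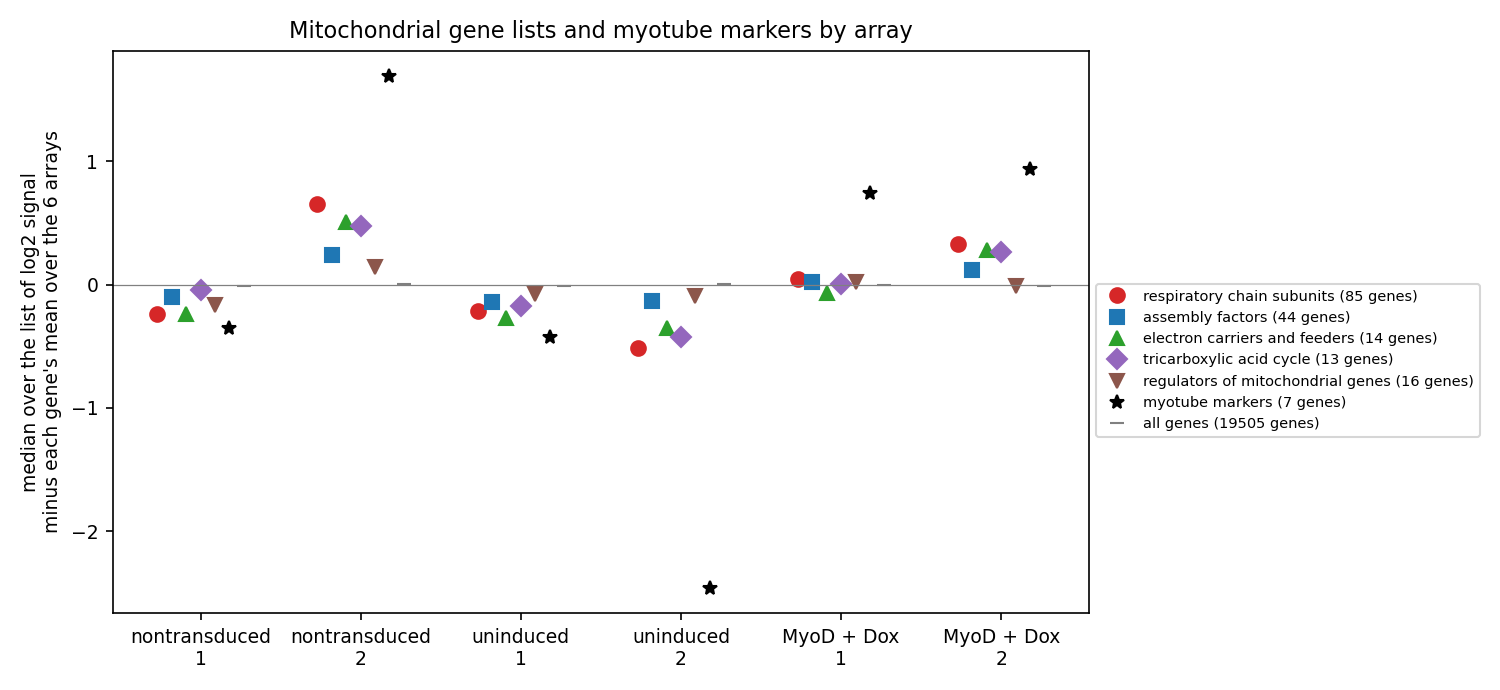
Median over each gene list of the log2 signal minus each gene's mean over the 6 arrays (vertical axis), on each array (horizontal axis); symbols are lists. The subunits run from -0.51 on the second uninduced array to 0.65 on the second nontransduced array and the myotube markers from -2.46 to 1.69 on the same arrays, while the median of all genes stays at 0.00 to -0.01.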

How the data were processed

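Total RNA of 6 samples was hybridised to Clariom S mouse arrays (1 colour, 1 array a sample). Extraction was by Trizol per the labels and by the RNeasy kit per the methods. The intensity values deposited by the authors are 1 per probe set, linear (4.37 to 888220) and normalised between arrays. Affymetrix Expression Console is credited in the submitters' processing notes, and the sources used here do not give the method behind the table. Log2 of the deposited intensity was taken.

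Of 28846 probe sets, 19572 had 1 gene symbol, 0 had several and 9274 had none. The Entrez identifiers of all 19572 were in the mouse reference, where 0 had another symbol. Where a gene had over 1 probe set (55 genes, none a subunit), the probe set with the highest mean was kept, which left 19505 genes. No filter on dim genes was applied. A gene was above background where it exceeded the 90th percentile of 23 background probe sets on that array (6.01 to 6.15), and 76 subunits did so on all 6 arrays.

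Groups follow the labels. Differences were tested two-sided by limma 3.58.1 in R 4.3.3 (lmFit, then eBayes) over all 6 arrays, with 3 residual degrees of freedom. The estimates of the fit had been checked on simulated data with changes larger than those of nearly all subunits. That check does not show how differences as small as theirs are called. P-values were adjusted by Benjamini-Hochberg over the 19505 genes, at 0.05. No test was made over a list. With 2 arrays a group the number of arrays limits the precision. Lists were written from textbook knowledge, and the members, lists and tests were chosen with earlier results of these data known. Named subunits are those with tissue isoforms and their partners, core subunits, and in each comparison the 4 highest, the 4 lowest and the 4 with the lowest p; Ndufb4, Ndufb4b, Ndufs4, Ndufs5, Atp5g2, Atp5g3, Cox6c and the genes named within the other lists were partly chosen after their values were seen. Alternatives were quantile normalisation, subtraction of array medians, the lowest 40% of genes left out, the trend and robust options of eBayes, fits to only 4 arrays, a replicate block, the mean of probe sets, the methods' t-test and each array left out; a crossed replicate block and the raising of uninduced Cox6a2 and Cox8b signals to background were added after seeing the data.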

Additional observations from a re-analysis of the deposited data

How the results depend on the processing

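Across 15 settings and the raising of 2 muscle isoforms to background, 1253 of 1326 values kept their direction and side of the threshold. The median difference of the subunits stayed within 0.35 to 0.71 (MyoD + Dox against uninduced), -0.45 to 0.41 (against nontransduced) and -1.03 to -0.15 (uninduced against nontransduced) with single arrays left out. No subunit was called by limma in MyoD + Dox against uninduced cells under any setting: the lowest adjusted p of the subunits ranged from 0.0546 to 0.999, against nontransduced cells from 0.131 to 1.0, and between the control groups from 0.00605, without the first nontransduced array, to 1.0. With 2 arrays a group and 3 residual degrees of freedom, counts of p-values depend on which arrays set the spread. Signals near or below background limit Cox7a1, Cox8b and, in uninduced cells, Cox6a2.

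In MyoD + Dox against uninduced cells, the fit of 4 arrays called 15 genes and put 33 subunits higher at an unadjusted p under 0.05, and the methods' t-test 9 subunits; leaving out single arrays gave 0 to 15 genes and 0 to 33 subunits. Against nontransduced cells the methods' t-test called 1 gene, and leaving out single arrays gave 0 to 169 genes, 0 to 13 subunits lower and 0 to 12 higher. In uninduced against nontransduced cells, leaving out single arrays gave 0 to 2191 genes and 0 to 58 subunits lower, and the fit of 4 arrays and the methods' t-test 1 subunit each. The causes were not tested.

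The sources used here do not say whether same-numbered arrays share more than a number. The correlation of their deviations over genes was -0.05 for MyoD + Dox and uninduced arrays. It was 0.41 for MyoD + Dox and nontransduced, and -0.34 for uninduced and nontransduced arrays. With the replicate block, 5 subunits were lower at an unadjusted p under 0.05 in uninduced than in nontransduced cells, against 2.73% of all genes, and with the pairing crossed, a setting chosen after seeing the data, 27, against 5.93%. With uninduced signals below background raised to it, also chosen after seeing the data, Cox8b minus Cox8a fell to 0.49.

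By quantile normalisation Cox7b2 turned to 0.0101 and Tfam to -0.0033 in MyoD + Dox against uninduced cells, and Tfam to -0.0031 with array medians subtracted. With single arrays left out, further directions turned. Atp5k, Cox4i2, Cox7b2 and Ndufa4l2 were above background on no array, and no direction is read from their values. In MyoD + Dox against uninduced cells the ranges were Cox4i2 -0.18 to 0.13, Cox6a1 -0.00389 to 0.34, Cox7a2l -0.0464 to 0.53, Cox7b2 -0.12 to 0.11, Ndufa4l2 -0.00734 to 0.082, Sdha -0.14 to 0.0769, Ppargc1a -0.55 to 0.40, Nrf1 -0.27 to 0.16, Tfam -0.22 to 0.25, Ndufb10 -0.0916 to 0.0308 and Cox7a1 minus Cox7a2 -0.25 to 0.54. In MyoD + Dox against nontransduced cells the ranges were Cox6a2 -1.05 to 4.59, Cox7a1 -0.88 to 0.84, Cox8b -1.08 to 2.75, Atp5k -0.00626 to 0.98, Atp5g1 -1.69 to 0.53, Ndufb10 -1.08 to 0.0702, Cox7a2 -0.93 to 0.10 and Ndufb5 -0.72 to 0.0301. In uninduced against nontransduced cells the ranges were Cox7a1 -1.47 to 0.25, Cox8b -3.78 to 0.0485, Atp5k -0.35 to 0.63, Ndufa4l2 -0.0461 to 0.15 and Cox7b2 -0.16 to 0.20.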
